A study of Rattus norvegicus with 4 samples.

Results

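The prolactin receptor and the STAT5 pathway below it were examined in the ventral prostate of male rats exposed to PhIP, a heterocyclic amine that arises in meat cooked at high heat. The members were 7 genes: Prlr, Jak2, Stat5a, Stat5b, Cish, Socs2 and Socs3. Of 14217 genes with a probe set of their own, these 7 were covered by 10 of 31042 probe sets, all those that the platform annotation gives one of these symbols and no other, with 3 for Prlr, 2 for Cish and 1 for each of the others. The set was chosen from the PhIP-against-control values themselves, because several Prlr probe sets had been seen to be higher, and its kinase, STAT5 and feedback genes were added by their known roles. The members' differences between the groups are therefore given as a description, with no test. The control group comprised F344 rats, an inbred laboratory strain, aged 6 weeks and not given PhIP, and the treated group comprised F344 rats of the same age given PhIP at 300 mg/kg, both examined after 2 days. With 4 rats a group and the RNA of 2 of them pooled per array, control 1, control 2, PhIP 1 and PhIP 2 are 4 arrays of pooled RNA. The spread between arrays is that between pools, and it understates the spread between animals.

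Prolactin is a hormone of the anterior pituitary that acts through a class I cytokine receptor without kinase activity of its own. Ligand binding activates the attached kinase JAK2, which phosphorylates the receptor and the transcription factors STAT5A and STAT5B. These enter the nucleus and bind palindromic DNA elements in genes such as Cish and Socs2, whose products bind phosphorylated receptors and dampen the signal. SOCS3 is a related inhibitor that also limits signalling through STAT3. In the rodent prostate the receptor is found in the secretory epithelium, and prolactin supports growth and secretion of the gland. The rat makes long and short receptor forms by alternative splicing, which differ in the part inside the cell.

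The STAT5 element is known as TTCNNNGAA, which reads the same on both strands. In the RefSeq promoter table of assembly GRCr8, which gives 250 bases before and 50 bases after each annotated start, 6 of the 7 members had an entry, with 7 promoters in all because Prlr had 2 starts. Matches were present in Cish and in the downstream start of Prlr, and in none of the promoter windows of Jak2, Stat5a, Stat5b, Socs3 or the upstream Prlr start. The Socs3 window (chr10:103694719-103695018, minus strand) lies inside the annotated span of the gene (103692579-103695975). The bases before the outer end of Socs3 were therefore not searched. Of 33469 rat promoters of this length, 8.87% held at least 1 match and 0.547% held at least 2. Cish held 4, a number that 2 promoters (0.00598%) reached. A match describes the letters and does not show that STAT5 was bound. The windows with matches are shown because they belong to the receptor and to the classical STAT5 target, with each match in capitals. The Cish window lies at chr8:116850719-116851018 and the Prlr window at chr2:60909409-60909708, both on the plus strand.
Cish: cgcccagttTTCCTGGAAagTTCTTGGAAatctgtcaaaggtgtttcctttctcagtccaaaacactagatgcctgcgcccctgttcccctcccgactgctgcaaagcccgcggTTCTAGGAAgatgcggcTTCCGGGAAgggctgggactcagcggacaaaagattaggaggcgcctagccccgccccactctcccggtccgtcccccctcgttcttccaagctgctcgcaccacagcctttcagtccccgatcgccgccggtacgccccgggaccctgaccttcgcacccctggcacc
Prlr: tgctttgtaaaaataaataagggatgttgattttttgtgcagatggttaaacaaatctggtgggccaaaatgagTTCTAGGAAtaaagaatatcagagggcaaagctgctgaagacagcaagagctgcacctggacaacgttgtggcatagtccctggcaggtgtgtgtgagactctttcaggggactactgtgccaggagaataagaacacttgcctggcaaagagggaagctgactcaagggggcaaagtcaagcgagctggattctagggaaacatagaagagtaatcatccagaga
The 4 Cish matches began 241, 230, 136 and 119 bases before the start, and the Prlr match 176 bases before it.

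The arrays had median signals between 23.1 and 27.4 and highest signals between 9761 and 10372, on MAS5's linear scale. Signals and summed signals of a group are given for array 1 and then array 2. Of the arrays, control 2 stood apart: its ratio of 3′ to 5′ signal was the highest both for actin (5.71, against 3.49 to 4.18 on the others) and for Gapdh (2.06, against 1.34 to 1.45). The tissue label was checked against markers of secretory epithelium. Probasin (Pbsn) had signals between 4273 and 4898 and the spermine-binding protein gene Sbp between 6436 and 8219 on the 4 arrays. Of 7 genes measured from seminal vesicle and other lobes, 5 were below the signal filter, and Svs4, a seminal vesicle secretory gene, had the highest signals, 179.7 to 256.1. In bulk tissue, fewer cells of a type and less RNA per cell cannot be told apart.

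The receptor gene Prlr (chr2:60861391-61051883, GRCr8) had bright signals on all 4 arrays, and each of its 3 probe sets was higher in both PhIP arrays than in both control arrays. The size of the difference varied between the probe sets. Which exons or receptor forms each covers is not given in the sources used here; in the manufacturer's naming, the ending _a_at marks probe sets whose probes match alternative transcripts of one gene. Signals of different probe sets are not set against each other, since their probes differ in affinity.

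Probe set 1369493_at read 893.9 on control 1 and 812.4 on control 2, against 1402.6 on PhIP 1 and 1247.1 on PhIP 2. The groups did not overlap, with a mean of 853.2 ± 57.6 (SD, n = 2) in control and 1325 ± 110 (SD, n = 2) in PhIP. This corresponds to 1.55-fold and to a log2 difference of 0.63 ± 0.10 (SE) on log2(signal + 10), the scale of all log2 differences here. Every SE given is the moderated one of the limma fit, in which each variance is drawn toward that of probe sets of like brightness. The difference was between 0.54 and 0.71 when any single array was left out, and groups that do not overlap fix its sign there.

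Probe set 1370384_a_at, the brightest of the 3, ranked 34 among the 31042 probe sets by mean signal. Its signals were 6051 on control 1, 6139 on control 2, 7082 on PhIP 1 and 6850 on PhIP 2. The pools of each group lay close together, and PhIP exceeded control by 1.14-fold, a log2 difference of 0.19 ± 0.05 (SE). This value depended on the scaling: quantile normalization and cyclic loess each gave 0.14, centring on the medians gave 0.33 and scaling to the hybridization controls gave 0.42. The median of all tested probe sets also moved, from −0.03 as deposited to 0.11 when centred and 0.18 when scaled to those controls. After quantile normalization that median was 0.002 and after cyclic loess 0.007. Centring used the medians of all 31042 probe sets, so the median of the tested ones need not be 0.

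Probe set 1370789_a_at read 1980.3 on control 1, 2188.6 on PhIP 1 and 2118.8 on PhIP 2, but only 680.0 on control 2. Its log2 difference of 0.88 ± 0.40 (SE) thus rested on control 2: it was 0.12 without control 2 and 1.65 without control 1. The within-group SD of its log2 values, which with 2 arrays a group equals the SE without moderation, was 0.76. The control pools lay 1.53 apart on the log2 scale, and 89 of 18625 tested probe sets (0.478%) had control pools at least as far apart. The same pools lay 0.14 and −0.02 apart (control 1 minus control 2) in the other Prlr probe sets, so the low reading was seen in 1 of the 3. The high 3′ to 5′ ratios of control 2 accompany it. So does its high summed signal of skeletal muscle markers (1498, against 426.3 to 913.4 on the others). The part of either in the result was not tested.

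**Figure D1:**
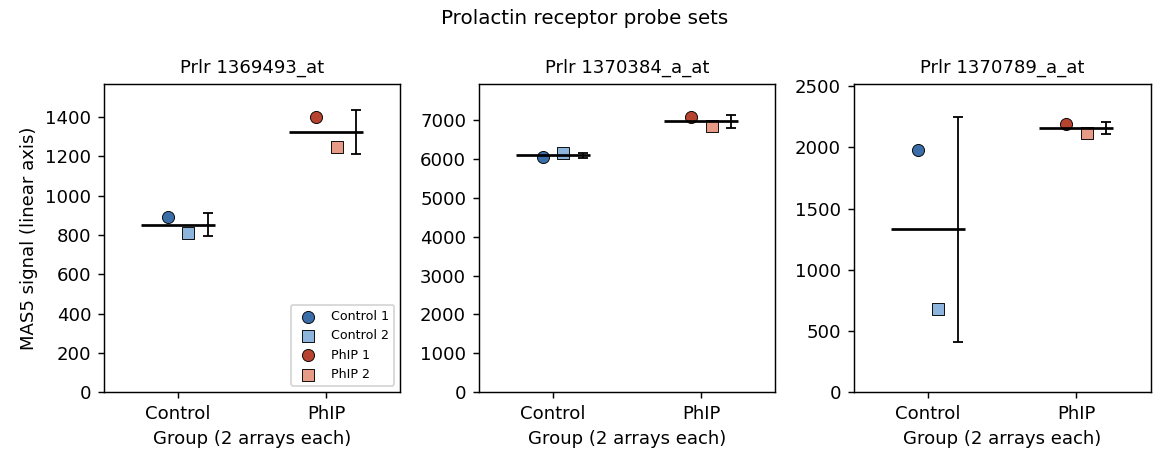
MAS5 signals (linear axes from 0) of the 3 Prlr probe sets, with 1 point for each array, a line at the group mean and a bar of 1 SD beside it. Both PhIP points lie above both control points in each panel; in 1370789_a_at control 1 (1980.3) lies near the PhIP arrays and control 2 (680.0) far below.

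Jak2, the kinase bound to the receptor (chr1:236408905-236468769), read 37.2 on control 1, 19.6 on control 2, 39.8 on PhIP 1 and 39.5 on PhIP 2. Control 2 was low and the other 3 arrays lay close together. The log2 difference was 0.41 ± 0.26 (SE), with a within-group SD of 0.34 on that scale. The difference was 0.07 without control 2 and 0.75 without control 1.

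The genes of the STAT5 factors lie near each other on chromosome 10. Stat5a (chr10:86285859-86310187) read 124.6 and 157.9 in control against 118.3 and 108.2 in PhIP, and the groups did not overlap. Its log2 difference, lower in PhIP, was −0.29 ± 0.16 (SE), and it was −0.13 without control 2, −0.45 without control 1 and −0.08 after scaling to the hybridization controls. Stat5b (chr10:86205148-86276178) read 37.7 and 27.4 in control against 34.8 and 22.9 in PhIP. In Stat5b the pools of each group differed by more than the groups did, with a log2 difference of −0.14 ± 0.25 (SE) that turned to 0.03 after scaling to those controls.

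The feedback genes were dim. Cish (chr8:116850969-116855917), which encodes an SH2 protein that binds the activated receptor, had probe sets that differed in direction. In 1378586_at the signals were 24.6 and 24.3 in control against 11.9 and 16.4 in PhIP, a log2 difference of −0.52 ± 0.24 (SE) with no overlap of the groups. For so dim a probe set the size depended on the setting, from −0.81 with no added constant to −0.37 after cyclic loess. In 1388233_at they were 9.5 and 8.3 in control against 10.7 and 12.7 in PhIP, below the signal filter and with PhIP the higher group. Cish is the gene whose promoter window held 4 matches to the STAT5 element, and its probe sets gave no common direction.

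Socs2 (chr7:31890564-31932092), a feedback inhibitor best known for restraining growth hormone signalling, read 0.8 and 1.3 in control against 0.4 and 1.4 in PhIP. Socs3 (chr10:103692579-103695975) read 2.2 and 33.1 in control against 6.1 and 1.8 in PhIP. Both genes lay below the filter and their groups overlapped; in Socs3 control 2 alone stood high. No level can be given for them beyond these signals, and no fold change is given.

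Over all 10 member probe sets, 7 passed the filter. Both PhIP arrays exceeded both controls in 5 (the 3 of Prlr, Jak2 and the dim Cish probe set) and lay below them in 2 (Stat5a and the other Cish probe set), and the groups overlapped in 3. Over all 31042 probe sets, 15.9% had PhIP wholly above control and 25.4% wholly below. Nothing is read from the members' count against these shares, since the same contrast chose Prlr.

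**Figure D2:**
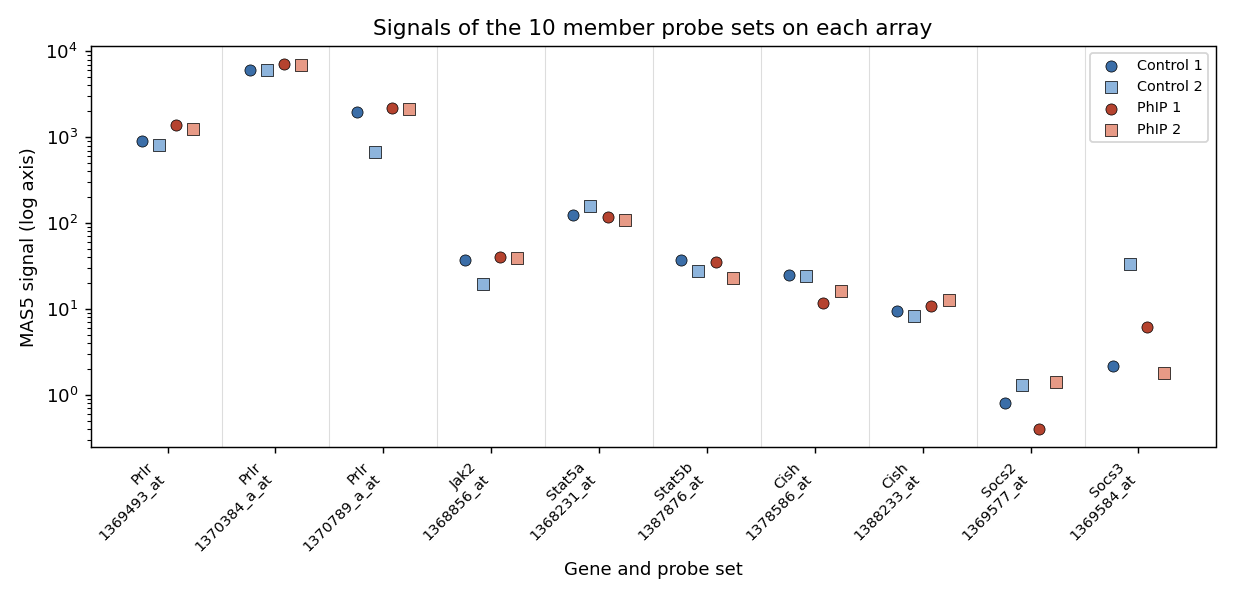
MAS5 signals (log axis) of the 10 member probe sets, with 1 point for each of the 4 arrays. The Prlr probe sets lie between 680.0 and 7082.1, Stat5a between 108.2 and 157.9, and Jak2, Stat5b, Cish, Socs2 and Socs3 below 40.

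Prlr differences were set beside markers of the cell types in the tissue. Of 8 measured luminal epithelial markers, 7 were higher in both PhIP arrays than in both controls and 0 were lower in both. Of all 10507 genes, 21.6% were higher in both. In the remaining marker, Pbsn, the groups overlapped and the log2 difference was −0.06. The median log2 difference of the 8 luminal markers was 0.21, and their summed signal was 19016 and 17802 in control against 20437 and 20795 in PhIP. The smallest Prlr difference, 0.19 in 1370384_a_at, was close to that median, while 0.63 in 1369493_at was about as large as the highest luminal markers, the keratin gene Krt19 (0.63) and the transcription factor gene Foxa1 (0.61). The value of 0.88 in 1370789_a_at, which rested on control 2, lay above that of every luminal marker.

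All 8 smooth muscle markers were lower in both PhIP arrays, as were 26.9% of all 10507 genes. These markers had a median of −0.81 and summed signals of 6788 and 6815 in control against 4134 and 4071 in PhIP. Fibroblast markers were lower in 6 of 6 (5 without overlap), with a median of −0.53 and summed signals of 11236 and 8755 in control against 6734 and 6778 in PhIP. Skeletal muscle markers summed to 913.4 and 1498 in control against 497.1 and 426.3 in PhIP, and all 6 measured were lower by their means. Between control 1 and control 2 the gap was wide in Myl1 (5.2 and 305.6) and narrow in Acta1 (658.2 and 691.1). All 5 measured endothelial markers were lower in both PhIP arrays, with a median of −0.43. Their signals summed to 225.2 and 248.7 in control against 158.4 and 151.3 in PhIP. Whether these shifts in marker levels had a part in the Prlr differences was not tested.

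**Figure D3:**
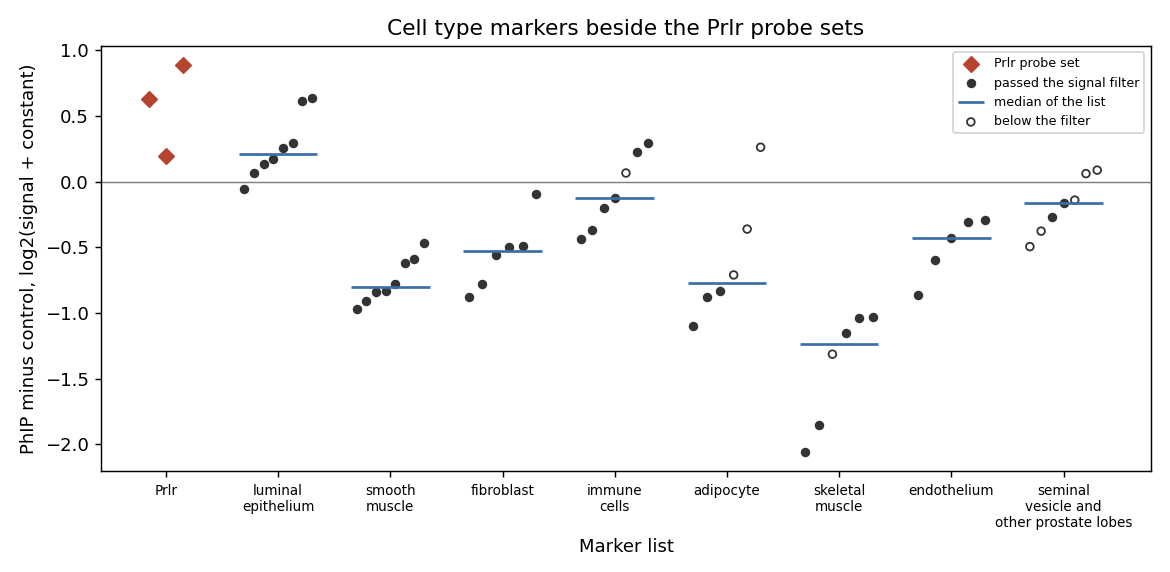
Log2 differences (PhIP minus control, log2(signal + 10)) of the 3 Prlr probe sets and of each marker gene by cell type; filled points passed the signal filter, open points did not, and a line marks each list's median. Luminal markers have a median of 0.21 and smooth muscle markers one of −0.81.

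The genes whose pattern over the 4 arrays was most like that of the brightest Prlr probe set were Msto1, Gtf2h5, Prdx3, Rpl19, Zranb2 and Tshz1. Their distances from it (Euclidean, on log2 values centred on each probe set's mean) were between 0.018 and 0.029. Prdx3, a mitochondrial peroxidase gene, read 473.8 and 470.6 on the control arrays, against 555.0 and 535.8 on the PhIP arrays. Rpl19, which encodes a ribosomal protein, read 4677 and 4856 on the control arrays, against 5498 and 5383 on the PhIP arrays.

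Other genes of the pathway were taken from lists made by role, though with earlier results of these data known. Of 93 listed genes, 85 had a probe set of their own and 54 passed the filter, each represented by its brightest probe set. None of the 54 was called higher or lower at an adjusted p of 0.05 (limma, adjusted over all 18625 probe sets tested, of which 5, or 0.0268%, were called). At an unadjusted limma p under 0.05 there were 4 higher and 6 lower, or 7.41% and 11.1%, against 6.12% and 8.45% of all 10507 genes. The groups did not overlap in 15 with PhIP higher (27.8%, against 21.6% of all genes) and in 14 with PhIP lower (25.9%, against 26.9%). The median log2 difference was −0.02 over the 54 and −0.03 over all genes. Without control 1, 7 of the 54 were called (Ccnd1, Dusp1, Gab1, Jak1, Pias2, Shc1 and Stat3), and without control 2, 3 of 53 were (Igf1, Lpl and Pias3); without either PhIP array 0 were.

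Ligands came first by role. Of 10 listed, 9 were on the array and none passed the filter, with signals between 0.5 and 18.3. Prl, which encodes prolactin, read 1.6 and 8.2 in control against 0.9 and 1.0 in PhIP. These readings concern RNA in the gland and say nothing of hormone arriving by blood.

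Among 12 measured cytokine receptor genes listed as able to use STAT5, 6 passed the filter, 2 higher and 4 lower in PhIP, and none was called. Ghr, the growth hormone receptor gene and the receptor most like Prlr, was below the filter in both its probe sets, with signals between 0.6 and 6.5 on all arrays. The erythropoietin receptor gene Epor read 26.7 and 24.8 in control against 11.2 and 19.0 in PhIP (log2 difference −0.53 ± 0.26, adjusted p = 0.433), and another tested probe set stood at −0.69 ± 0.27. Il2rb, a lymphocyte receptor chain, read 30.5 and 31.1 in control against 20.1 and 16.8 in PhIP (adjusted p = 0.379). The leptin receptor gene Lepr (−0.28 ± 0.23, and −0.04 ± 0.28 in another tested probe set) and the interleukin-3 receptor gene Il3ra (0.15 ± 0.23) were also dim. The highest signal among these 12 receptor genes on any array was 34.9, in Epor. Of 7 immune cell markers, 3 were higher and 4 lower on the log2(signal + 10) scale. Of the T lymphocyte markers Cd3g stood at −0.12 ± 0.23, with groups that overlapped, and Cd3e was below the filter. The macrophage genes Cd68 and Lyz2 stood at −0.44 and 0.29, and the part of these markers in the Il2rb values was not tested.

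Of the other JAK and STAT genes, 5 of 7 measured passed the filter and none was called. Stat3, which carries signals of the interleukin-6 family, was the brightest, reading 1224 and 1477 on the control arrays, against 1138 and 1167 on the PhIP arrays. Its groups did not overlap (log2 difference −0.22 ± 0.10, adjusted p = 0.419), but another probe set stood at −0.05 ± 0.11. The kinase gene Jak1 stood at 0.19 ± 0.13, with 0.52 ± 0.41 in another tested probe set, and Tyk2 at −0.05 ± 0.13.

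Other SOCS genes, phosphatase genes, PIAS genes and related regulators were mostly measurable. Of those on the array, 17 of 17 passed the filter, 11 higher and 6 lower, and none was called. Pias2, which encodes an E3 SUMO ligase that restrains STAT factors, read 362.0 and 342.1 in control against 463.2 and 422.3 in PhIP (log2 difference 0.32 ± 0.11, adjusted p = 0.298), and its other probe set stood at 0.32 ± 0.13. Its relative Pias3 (0.30 ± 0.15) and the phosphatase gene Dusp1 (0.30 ± 0.11) also had groups that did not overlap, but another tested Dusp1 probe set, at 0.60 ± 0.38, had groups that did. Socs1 was lower in PhIP, with 20.4 and 33.1 in control against 4.6 and 16.2 in PhIP (−0.89 ± 0.35, adjusted p = 0.348). The phosphatase genes Ptpn11 (0.02 ± 0.11) and Ptpn6 (0.09 ± 0.13) lay near 0, while Ptpn2 stood at 0.26 ± 0.16. Ptpn1 differed in direction between its probe sets, at 0.18 ± 0.15 in the brightest and −0.60 ± 0.14 in another (adjusted p = 0.166). The groups of neither Ptpn1 probe set overlapped. Btrc, whose product marks the prolactin receptor for degradation, stood at 0.07 ± 0.17 in its brightest probe set and at 0.25 ± 0.19 and −0.39 ± 0.24 in its others.

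Adaptors and kinases that branch from the receptor showed no shared direction, with 7 of 14 tested higher, 7 lower and none called. Sirpa, which encodes a membrane docking protein for SHP phosphatases, read 135.1 and 150.2 in control against 181.3 and 181.7 in PhIP (0.33 ± 0.13, adjusted p = 0.365), while another tested probe set stood at −0.27 ± 0.23. Vav3, an exchange factor gene, stood at 0.70 ± 0.37, with control 1 at 4.9 and the other arrays between 22.1 and 27.7. The kinase genes Pak1 and Fyn stood at 0.23 ± 0.14 and −0.39 ± 0.25, and another tested Pak1 probe set at −0.03 ± 0.21.

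**Figure D4:**
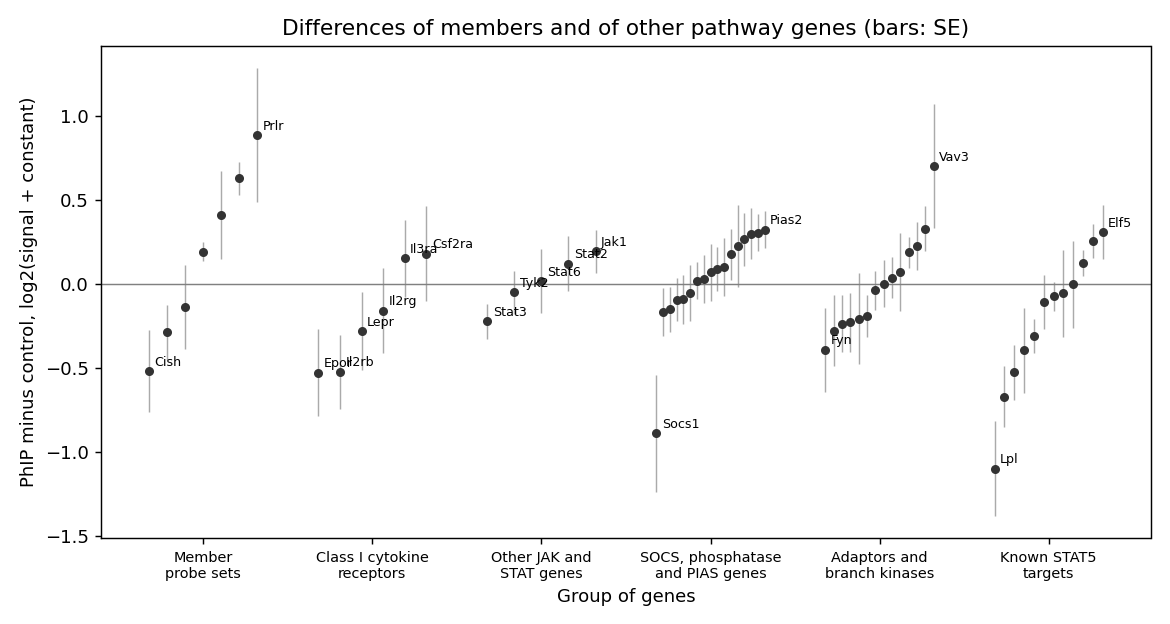
Log2 differences (PhIP minus control, log2(signal + 10)) with SE bars for the 7 member probe sets that passed the filter and for the tested genes of each pathway list, in rising order within a list. The widest range is in the known STAT5 targets, from −1.10 (Lpl) to 0.31 (Elf5).

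Known STAT5 targets, gathered from other tissues, numbered 22 on the array, of which 12 passed the filter, 3 higher and 9 lower, and none was called; over all 10507 genes, 4828 were higher and 5677 lower. At an unadjusted limma p under 0.05, 4 of these 12 were lower and 1 higher, where all genes had 8.45% lower and 6.12% higher. The groups did not overlap in 5 of the 12 with PhIP lower and 3 with PhIP higher, against 26.9% and 21.6% of all genes. Since the list also holds Bcl6, which STAT5 represses in other tissues, no direction of signalling is read from these counts. Igf1, the growth factor gene that growth hormone induces through STAT5, read 229.0 and 164.6 in control against 110.7 and 126.7 in PhIP. Its log2 difference was −0.67 ± 0.18 (adjusted p = 0.211), and its other probe sets stood at −0.71 ± 0.24 and −0.70 ± 0.24. Lpl, a lipase gene that is also an adipocyte marker, read 115.0 and 70.3 in control against 27.8 and 48 in PhIP (−1.10 ± 0.28, adjusted p = 0.188). Adipocyte markers summed to 309.1 and 195.5 in control against 83.1 and 154.2 in PhIP, with Lpl among them, and their part in the Lpl values was not tested; nor was that of the fibroblast markers, whose sum, like Igf1, was highest on control 1, in the Igf1 values.

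Among survival and cycle targets, Bcl2l1 stood at −0.53 ± 0.17 (adjusted p = 0.264; −0.01 ± 0.27 in another probe set). Ccnd1, the cyclin D1 gene, stood at −0.31 ± 0.10 (adjusted p = 0.279), with −0.30 ± 0.13 and −0.27 ± 0.12 in its other probe sets. Cdkn1b, the p27 gene, stood at 0.26 ± 0.10 (adjusted p = 0.348) and at 0.58 ± 0.25 in another. Ccnd1, Cdkn1b and Elf5 were named after their values were seen, and Bcl6 also lay outside the naming rule. The milk protein gene Csn1s1 read 28.0 and 19.0 in control against 15.5 and 15 in PhIP. Csn2, Wap and Lalba, other milk protein genes, did not pass the signal filter. Elf5, a transcription factor gene that prolactin induces in mammary epithelium, read 64.9 and 69.8 in control against 89.0 and 82.4 in PhIP (0.31 ± 0.16, adjusted p = 0.466), so its groups did not overlap. Bcl6, which STAT5 represses in other tissues, stood at 0.13 ± 0.08, with signals from 2822 to 3355.

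**Figure D5:**
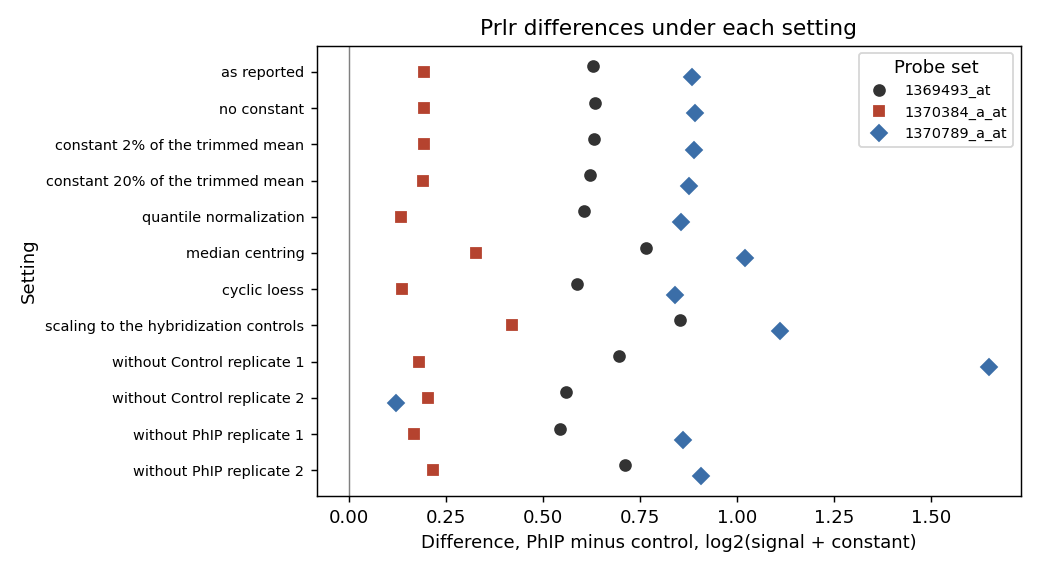
Log2 difference (PhIP minus control) of each Prlr probe set as reported, with other constants and scalings, and without each array. Every point lies above 0, which groups that do not overlap fix for other constants and left-out arrays; those of 1370789_a_at run from 0.12 without control 2 to 1.65 without control 1, and those of 1369493_at from 0.54 to 0.85.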

How the data were processed

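Gene expression was measured on 4 rat Affymetrix arrays. The deposited values are MAS5 intensities on a linear scale, as the submitters' processing notes name them; for version, scaling target and detection calls the sources used here give nothing. The mean after trimming 2% at each end was 100.0 on every array. Of 31099 probe sets, 57 controls were left out. Genes were named from the platform annotation (20826 probe sets with 1 symbol, 436 with several, 9780 with none); the symbols of all 10 member probe sets matched RefSeq (GRCr8) by gene identifier, and promoters and gene positions are RefSeq's of that assembly.

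Signals were analysed as log2(signal + 10), the constant being 10% of the trimmed mean. Probe sets whose mean log2 value lay above the 40th percentile (18625) were tested with limma 3.58.1 in R 4.3.3 (lmFit, eBayes with intensity trend, 2 residual and 5.67 prior degrees of freedom), two-sided, with Benjamini-Hochberg adjustment over all of them; the script was tested on simulated data. SEs, also those of the members, are the moderated ones of this fit. Figures used Python 3.11.15 with matplotlib 3.10.9. The number of arrays limits the precision, and the sizes of dim differences and the number of calls also depended on the settings. An exact permutation test of 2 arrays against 2 cannot reach 0.05 and was not used. The rule named every member probe set, Ghr, and up to 4 genes of each pathway list with the largest log2 difference and no overlap of the groups. Pathway genes described outside that rule were Prl, Jak1, Tyk2, Ptpn1, Ptpn2, Ptpn6, Ptpn11, Btrc, Ccnd1, Cdkn1b, Elf5, Bcl6, Csn2, Wap and Lalba. The members and lists were chosen with earlier results of these data known. Alternatives were other constants, filters, scalings and variance settings, the replicate number as a block, averaging the probe sets of a gene, and leaving out each array.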

Additional observations from a re-analysis of the deposited data

How the results depend on the processing

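With 2 pooled arrays a group, the number of calls over all tested probe sets was unstable. Instead of 5 it was 22 with a constant of 20% of the trimmed mean, 44 with a filter at the 60th percentile, 3 after cyclic loess, 158 after scaling to the hybridization controls, 35 with the replicate block and 52 with robust eBayes. It was 0 with no filter, after quantile normalization, after median centring and with eBayes without trend, and ranged from 0 to 2361 when 1 array was left out. The pathway genes called numbered 0 in the 13 other alternatives run and from 0 to 7 when 1 array was left out. The numbers of the arrays are not shown to pair them: the deviations of same-numbered arrays correlated at −0.056. The replicate block called 0 pathway genes, as did the fit without it, so that count cannot bear on pairing. The cause of these changes was not tested. The groups of the Prlr, Jak2, Stat5a and Cish probe sets do not overlap, so another constant or leaving out 1 array could not turn the sign of their differences; the 4 other scalings did not turn it either. The dim Cish probe sets changed in size, 1378586_at from −0.81 to −0.37 and 1388233_at from 0.13 to 0.39. Stat5b, Socs2 and Socs3, whose groups overlapped, changed sign in 3, 5 and 1 of 11 alternatives.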

Other observations

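In the GRCr8 table, the 3 nearest genes on one side of Prlr were a pseudogene and 2 long noncoding RNA genes, none with a probe set of its own. The 3 nearest on the other side were Agxt2, below the signal filter, Dnajc21 and Brix1. Dnajc21, a co-chaperone gene, stood at 0.12 ± 0.16 (SE; limma adjusted p = 0.765) and Brix1, a ribosome assembly gene, at 0.23 ± 0.19 (adjusted p = 0.637), with groups that overlapped in both. Ghr lies farther out on the first side, 6328796 bases away with 90 annotated genes between.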
